A study of Mus musculus with 9 samples.

Results

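The genes described here are 10 genes that mark the endothelium of the mouse lung: Pecam1, Cdh5, Cldn5, Kdr, Tek, Tie1, Car4, Ednrb, Plvap and Aplnr. They were chosen by name, with earlier results of these data known. All 10 were found by symbol among the 22564 genes of the expression table. The study measured RNA in whole lung, after irradiation of the brain, in 9 libraries, and its stated purpose was to look for bystander effects in the lung. Of the 14074 genes that passed a filter on low counts, 10 were these genes, so all of them were tested. The 3-exposure group (n = 3) received whole-brain X-rays at 10 Gy and 2 Gy per min on 3 occasions, a week apart. The single-exposure group (n = 3) received the same dose once. The sham group (n = 3) was sham irradiated. All mice, sham included, were of the strain GFP-LC3, which carries an autophagy reporter. The labels give no age, sex, time from exposure to collection or schedule for the sham group, so differences in age, time or schedule cannot be told apart from exposure.

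Endothelial cells line the blood vessels of the lung and form the blood side of the barrier across which gas is exchanged. They are held together by adherens and tight junctions, and they depend on receptors for VEGF and angiopoietins. The capillary bed of the mouse lung holds aerocytes, large cells specialised for gas exchange and marked by Car4 and Ednrb, and general capillary cells, which act as their progenitors and are marked by Plvap and Aplnr. In whole-lung RNA, fewer endothelial cells and less RNA per endothelial cell cannot be told apart.

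Promoter sequences are shown for Cldn5, the gene that was below sham in each single-exposure library, and for the VEGF and angiopoietin receptor genes Kdr, Tek and Tie1. Each is the 250 bases before the RefSeq start site (GRCm38.p6), read along the strand of the gene. Capitals mark GGAA, the core letters that ETS transcription factors bind, or TTCC, the same letters on the other strand.
Cldn5: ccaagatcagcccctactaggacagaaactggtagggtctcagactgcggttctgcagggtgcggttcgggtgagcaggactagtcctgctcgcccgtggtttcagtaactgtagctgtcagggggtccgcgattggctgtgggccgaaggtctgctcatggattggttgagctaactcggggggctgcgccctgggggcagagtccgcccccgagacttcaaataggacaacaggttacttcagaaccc
Kdr: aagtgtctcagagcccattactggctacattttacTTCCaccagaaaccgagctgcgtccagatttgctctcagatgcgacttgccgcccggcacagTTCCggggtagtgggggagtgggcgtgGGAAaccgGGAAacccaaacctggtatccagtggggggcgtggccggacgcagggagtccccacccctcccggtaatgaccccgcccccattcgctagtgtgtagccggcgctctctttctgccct
Tek: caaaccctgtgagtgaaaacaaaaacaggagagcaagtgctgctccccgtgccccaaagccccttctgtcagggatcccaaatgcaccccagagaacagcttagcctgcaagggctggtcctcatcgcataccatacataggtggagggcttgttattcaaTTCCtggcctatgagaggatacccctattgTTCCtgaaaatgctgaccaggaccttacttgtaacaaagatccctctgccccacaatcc
Tie1: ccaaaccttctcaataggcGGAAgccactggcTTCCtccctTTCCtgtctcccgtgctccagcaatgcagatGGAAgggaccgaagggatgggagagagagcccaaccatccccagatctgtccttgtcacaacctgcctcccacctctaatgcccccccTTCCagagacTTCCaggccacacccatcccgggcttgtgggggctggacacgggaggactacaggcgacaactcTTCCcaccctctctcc
The Cldn5 sequence lies at chr16:18776597-18776846 (+), Kdr at chr5:75978456-75978705 (-), Tek at chr4:94739039-94739288 (+) and Tie1 at chr4:118489850-118490099 (-). GGAA on either strand occurred 0 times before Cldn5, 4 times before Kdr, 2 times before Tek and 7 times before Tie1. Of 32851 mouse promoters of the same length, 93.4% held at least 1 GGAA, with a median of 3 matches, so its presence did not set these genes apart. RefSeq entries were matched for 6 of the 10 genes, and the same window held 4 matches to GGAA before Car4 and 2 before Ednrb. Here "before" refers to the RefSeq start, and GENCODE M21 starts some of these genes further upstream. By GENCODE, Tie1 runs to 118490061, so its window lies partly within the gene. The Ednrb window (chr14:103843702-103843951) lies wholly within the gene, which runs to 103844402. Kdr runs to 75978458, so its window overlaps the gene at the edge. The longer form CCGGAA, on either strand, was found 2 times before Car4, 1 time before Kdr and 0 times before Cldn5, Tek, Tie1 and Ednrb, and 12.03% of all promoters held it. Pecam1, Cdh5, Plvap and Aplnr are named only.

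Libraries held 4987884 to 7381012 fragments. Lung markers were present in all of them, and the surfactant gene Sftpc averaged 5173 CPM (fragments scaled to effective library size) over the 9 libraries. Several libraries stood apart. Single-exposure library 1 held 12668 CPM of 12 heart muscle genes, against 83.7 to 711 CPM in the other 8 libraries, and 4576 CPM of 10 smooth muscle genes, against 872 to 1421 CPM. Its 25 pan-endothelial genes, a list that holds none of the 10 genes, summed to 1576 CPM, against 4569 to 8511 CPM elsewhere. Adipocyte genes summed to 1135 CPM in single-exposure library 1 and 1146 CPM in 3-exposure library 3, against 15.5 to 123 CPM in the other 7 libraries. Sham library 1 lay between the other sham libraries for 70.9% of genes and for 9 of the 10 endothelial genes, against 12.9 to 42.6% of genes for any other library within its own group. Its squared deviation from those 2 libraries had a median of 0.182 of the counting variance, against 1.65 to 9.79 for the other libraries, so the sham group may hold fewer than 3 independent samples. Sham library 1 also held 2697 CPM of 10 skeletal muscle genes, against 0.818 to 116 CPM elsewhere. The 4 Y-linked genes Ddx3y, Uty, Kdm5d and Eif2s3y together had 0 fragments in 3-exposure library 3 and 1443 to 2070 fragments in the others. Beyond the values given below without these libraries, what part these differences play in the results was not tested. Nothing states that the numbered libraries came from separate animals, so the p-values cover only the spread among the libraries.

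**Figure D1:**
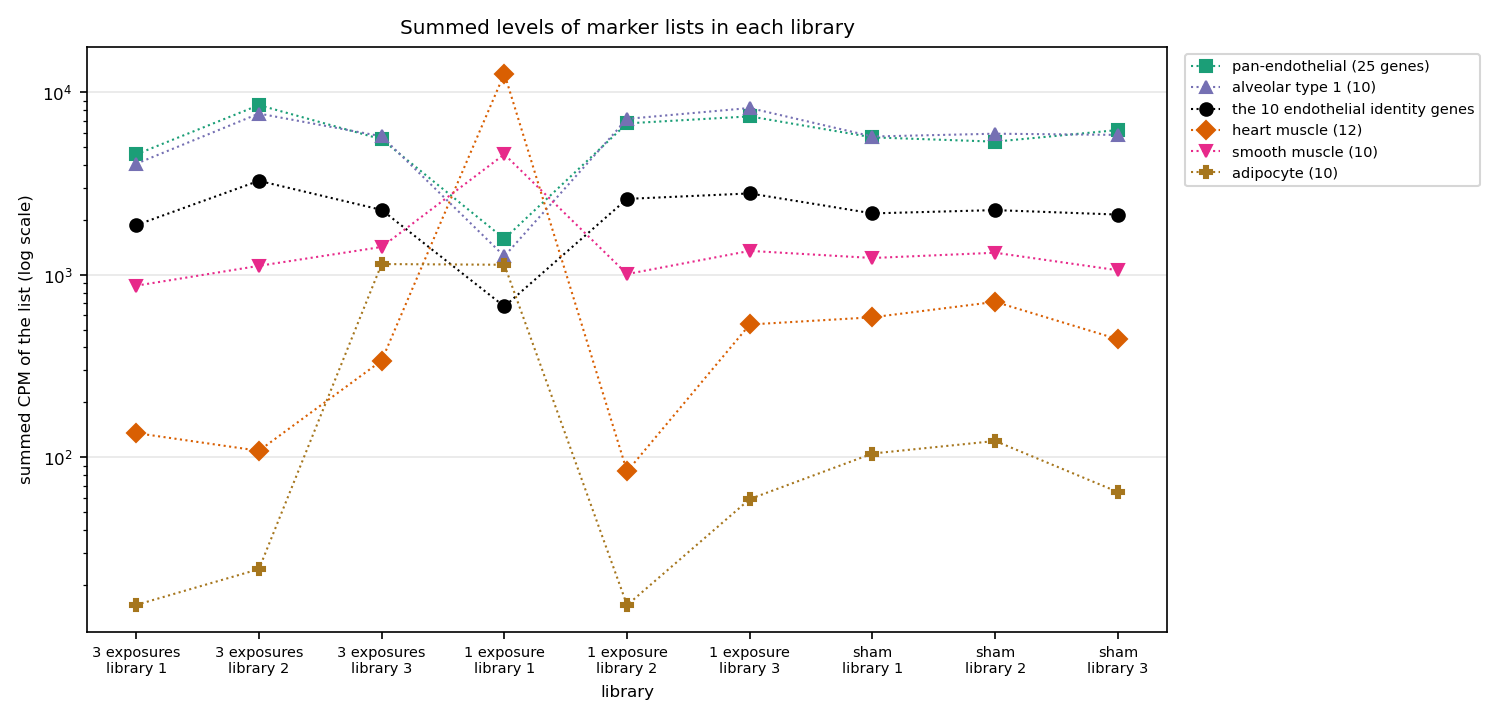
Summed CPM (log scale) of the 10 endothelial identity genes and of 5 marker lists in each of the 9 libraries. Dotted lines only join points of 1 list. In single-exposure library 1 the endothelial and alveolar type 1 lists are at their lowest and the heart muscle (12668 CPM) and smooth muscle (4576 CPM) lists at their highest.

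Per length of transcript, Pecam1 was the most abundant of the 10 genes in all 9 libraries, with a mean of 169 FPKM, and Aplnr was the least abundant in 8 of 9, with a mean of 10.7 FPKM. Between them the means were 102 FPKM for Cdh5, 88.4 for Cldn5, 56.7 for Plvap, 49.98 for Kdr, 45.0 for Tek, 44.5 for Car4, 33.3 for Tie1 and 18.5 for Ednrb. In sham lungs the order ran from Pecam1 through Cldn5, Cdh5, Plvap, Tek, Car4, Kdr, Tie1 and Ednrb to Aplnr. Among sham neighbours in that order, Tek and Car4, Car4 and Kdr, and Kdr and Tie1 overlapped, and the other pairs did not. Among 3-exposure lungs only Tie1 and Ednrb, of the 9 neighbouring pairs, did not overlap. All 9 neighbouring pairs overlapped among single-exposure lungs.

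The question of the study is whether brain irradiation moves RNA levels in the lung. No endothelial identity gene passed the threshold of an adjusted p under 0.05 in any of the 3 comparisons (edgeR's quasi-likelihood test, Benjamini-Hochberg adjustment over 14074 genes). Aplnr, the receptor for apelin, averaged 58.2 CPM in 3-exposure lungs and 55.1 CPM in single-exposure lungs, against 22.8 CPM in sham lungs. Its unadjusted p was 0.0108 for 3 exposures and 0.0147 for a single exposure (edgeR), and it did not pass the adjusted threshold. Cldn5, the tight junction gene claudin-5, averaged 88.3 CPM in single-exposure lungs, against 170 CPM in sham lungs, also without passing. For Cldn5 and the other 8 genes the 95% interval of the difference from sham included 0 in both comparisons.

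The count of endothelial genes called was 0 of 10 for 3 exposures against sham, where 0% of all genes were called. It was likewise 0 of 10 for a single exposure against sham (0% of all genes) and 0 of 10 for 3 exposures against a single exposure (0% of all genes). At an unadjusted p under 0.05 and a higher level, 1 of 10 was counted for 3 exposures against sham (Aplnr), beside 4.26% of all genes. The same count was 1 of 10 for a single exposure against sham (Aplnr), beside 6.6% of all genes, and 0 of 10 for 3 exposures against a single exposure, beside 2.79%. Without a condition on direction, 1112 genes had an unadjusted p under 0.05 for 3 exposures against sham, 1693 for a single exposure against sham and 920 for 3 exposures against a single exposure. DESeq2 called 0 of the 10 genes in each comparison, though it called 89 genes in all for 3 exposures against sham and 198 for a single exposure against sham.

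In every library of the 3-exposure group Plvap and Aplnr were above every sham library, so that 2 of 10 genes were higher without overlap, beside 10.8% of all genes. None of the 10 was lower without overlap, beside 11.1% of all genes. For a single exposure against sham, 1 of 10 was lower without overlap (Cldn5), beside 10.7% of all genes, and 0 of 10 were higher without overlap, beside 10.2%. With so few genes, these shares are near the background.

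**Figure D2:**
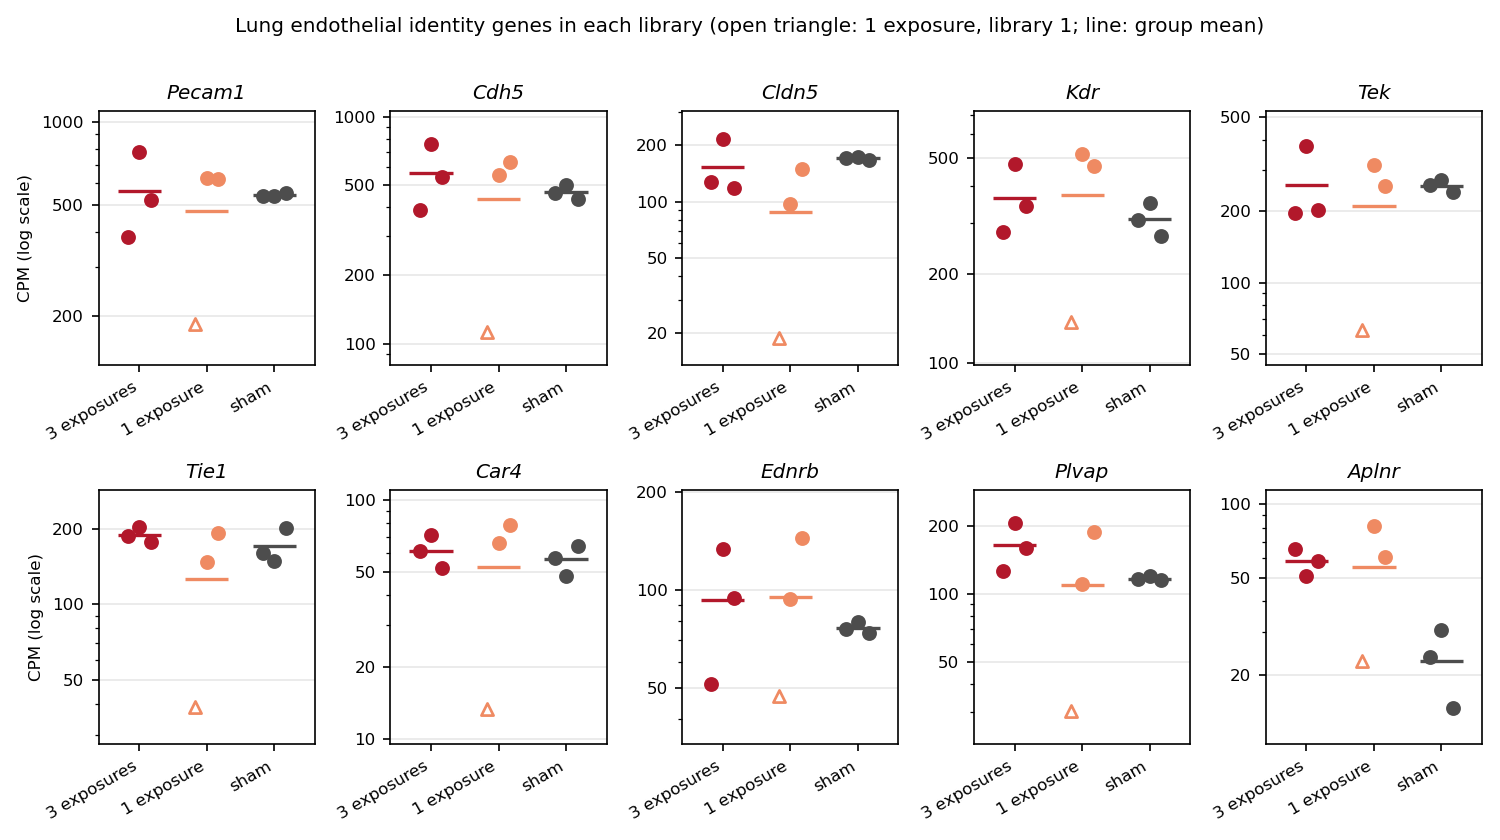
CPM (log scale) of each gene in each library. Points are libraries, lines are group means and the open triangle is single-exposure library 1, the lowest of all 9 libraries for 9 of the 10 genes (all but Aplnr). Aplnr is at 50.7 to 65.6 CPM in the 3-exposure libraries and 14.6 to 30.3 CPM in the sham libraries.

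Pecam1 encodes the adhesion molecule CD31 of endothelial cell contacts (chromosome 11, 106654217 to 106750628, minus strand; coordinates here and below are GENCODE M21 on GRCm38). Pecam1 was at 386, 780 and 523 CPM in 3-exposure lungs, at 187, 629 and 623 CPM in single-exposure lungs and at 539, 542 and 554 CPM in sham lungs. The 3-exposure libraries lay on both sides of sham, and only library 1 of the single-exposure group lay below it. In edgeR's fit the log2 fold change was 0.05 ± 0.42 (SE) for 3 exposures against sham and -0.19 ± 0.42 for a single exposure against sham.

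Cdh5 encodes VE-cadherin, the adherens junction protein of endothelium (chromosome 8, 104101625 to 104144511, plus strand). Cdh5 was at 390, 759 and 543 CPM in 3-exposure lungs, at 113, 554 and 632 CPM in single-exposure lungs and at 462, 500 and 436 CPM in sham lungs. In each irradiated group libraries 2 and 3 were above every sham library and library 1 was below all of them. Its log2 fold change was 0.28 ± 0.52 for 3 exposures and -0.11 ± 0.52 for a single exposure. Without single-exposure library 1, the single-exposure value turned to 0.35 ± 0.25. An antisense gene overlaps Cdh5 over 4249 bases, and whether the authors counted by strand is not given in the sources used here.

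Cldn5 encodes claudin-5, the main tight junction claudin of endothelium (chromosome 16, 18776847 to 18778262, plus strand). Cldn5 was at 127, 217 and 117 CPM in 3-exposure lungs, at 18.8, 96.6 and 150 CPM in single-exposure lungs and at 171, 172 and 167 CPM in sham lungs. Every single-exposure library was below every sham library, while the 3-exposure libraries lay on both sides. Means were 88.3 ± 65.8 CPM in single-exposure lungs and 170 ± 2.80 CPM in sham lungs (SD, n = 3 each). After a single exposure the log2 fold change was -0.94 ± 0.57 (95% interval -2.22 to 0.33, adjusted p = 0.525 with edgeR). Without library 1 of that group it was -0.46 ± 0.27 (adjusted p = 0.475 with edgeR). The value was -0.14 ± 0.56 for 3 exposures against sham and 0.80 ± 0.57 for 3 exposures against a single exposure.

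Kdr encodes VEGF receptor 2, the main signalling receptor for VEGF-A (chromosome 5, 75932827 to 75978458, minus strand). Kdr was at 279, 476 and 342 CPM in 3-exposure lungs, at 137, 514 and 468 CPM in single-exposure lungs and at 307, 351 and 270 CPM in sham lungs. Single-exposure libraries 2 and 3 were above all sham libraries and library 1 was below them. Its log2 fold change was 0.24 ± 0.42 for 3 exposures and 0.27 ± 0.42 for a single exposure. Without single-exposure library 1 it was 0.67 ± 0.22 for a single exposure (unadjusted p = 0.0137, adjusted p = 0.273 with edgeR).

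Tek encodes Tie2, the receptor for angiopoietins (chromosome 4, 94739289 to 94874976, plus strand). Tek was at 197, 378 and 202 CPM in 3-exposure lungs, at 62.8, 314 and 255 CPM in single-exposure lungs and at 258, 270 and 242 CPM in sham lungs. All 3 groups overlapped. Against sham, the log2 fold change was 0.01 ± 0.49 for 3 exposures and -0.29 ± 0.49 for a single exposure. The single-exposure value was 0.15 ± 0.27 without library 1.

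Tie1 encodes the orphan receptor that pairs with Tie2 (chromosome 4, 118471191 to 118490061, minus strand). Tie1 was at 188, 203 and 176 CPM in 3-exposure lungs, at 38.8, 147 and 191 CPM in single-exposure lungs and at 160, 149 and 202 CPM in sham lungs. The 3-exposure libraries were close to each other and within or just above the sham range. Against sham, the log2 fold change was 0.15 ± 0.44 for 3 exposures and -0.44 ± 0.44 for a single exposure, which became -0.01 ± 0.17 without library 1.

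Car4 encodes a membrane-bound carbonic anhydrase of aerocytes (chromosome 11, 84957786 to 84966044, plus strand). Car4 was at 61.2, 71.3 and 51.9 CPM in 3-exposure lungs, at 13.4, 65.9 and 78.7 CPM in single-exposure lungs and at 57.3, 48.1 and 64.5 CPM in sham lungs. The 3-exposure and sham libraries overlapped. Log2 fold changes were 0.12 ± 0.49 for 3 exposures and -0.11 ± 0.49 for a single exposure, and 0.35 ± 0.18 for a single exposure without library 1.

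Ednrb encodes the endothelin receptor B (chromosome 14, 103814625 to 103844402, minus strand). Ednrb was at 51.3, 133 and 94.1 CPM in 3-exposure lungs, at 47.0, 93.5 and 145 CPM in single-exposure lungs and at 75.9, 79.7 and 73.4 CPM in sham lungs. In each irradiated group library 1 was below sham and libraries 2 and 3 were above it. Log2 fold changes were 0.28 ± 0.41 for 3 exposures and 0.32 ± 0.41 for a single exposure, and 0.64 ± 0.33 for a single exposure without library 1. The genes of the 10-gene aerocyte list showed no call in either direction in any comparison. Of these, 6 were higher and 4 lower for 3 exposures against sham, with a median log2 fold change of 0.16, against 0.02 over all genes. After a single exposure 4 were higher and 6 lower than in sham lungs, with a median of -0.10, against 0.03 over all genes.

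Plvap encodes the protein of the diaphragms that span endothelial fenestrae and caveolae (chromosome 8, 71497765 to 71511752, minus strand). Plvap was at 127, 206 and 161 CPM in 3-exposure lungs, at 30.3, 111 and 189 CPM in single-exposure lungs and at 116, 120 and 115 CPM in sham lungs. Every 3-exposure library was above every sham library, and the single-exposure libraries lay on both sides. After 3 exposures the log2 fold change was 0.49 ± 0.50 (95% interval -0.63 to 1.61, adjusted p = 0.861 with edgeR). It was -0.09 ± 0.50 for a single exposure, and 0.36 ± 0.25 without library 1 of that group. Plvap overlaps Gtpbp3 on the opposite strand over 1819 bases, and Gtpbp3 had 7.40 to 17.1 CPM.

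Aplnr encodes the receptor for apelin, a peptide that aerocytes make (chromosome 2, 85136225 to 85139923, plus strand). Aplnr was at 65.6, 50.7 and 58.3 CPM in 3-exposure lungs, at 22.8, 81.6 and 61.0 CPM in single-exposure lungs and at 23.5, 30.3 and 14.6 CPM in sham lungs. All 3-exposure libraries and libraries 2 and 3 of the single-exposure group were above every sham library, and single-exposure library 1 was within the sham range. In fragments, the sham libraries held 147, 161 and 74. Means were 58.2 ± 7.46 CPM in 3-exposure lungs and 22.8 ± 7.92 CPM in sham lungs (SD, n = 3 each). The single-exposure mean was 55.1 ± 29.9 CPM (SD, n = 3).

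The log2 fold change of Aplnr for 3 exposures against sham was 1.35 ± 0.43 (95% interval 0.39 to 2.31, adjusted p = 0.498 with edgeR). After a single exposure it was 1.27 ± 0.42 (95% interval 0.31 to 2.23, adjusted p = 0.332 with edgeR). Without single-exposure library 1 it was 1.64 ± 0.27 for a single exposure (adjusted p = 0.133 with edgeR). Without sham library 1 it was 1.37 ± 0.52 for 3 exposures (unadjusted p = 0.0277, adjusted p = 0.9998 with edgeR). For a single exposure it was then 1.29 ± 0.52 (unadjusted p = 0.0351, adjusted p = 0.850 with edgeR). Without 3-exposure library 3, the library with no Y-linked fragments, it was 1.35 ± 0.49 for 3 exposures (adjusted p = 0.759 with edgeR). Between 3 exposures and a single exposure it was 0.08 ± 0.41. The deposited locus of Aplnr is shared with Lrrc55, which lies 22410 bases away on the opposite strand and had at most 1.31 CPM.

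**Figure D3:**
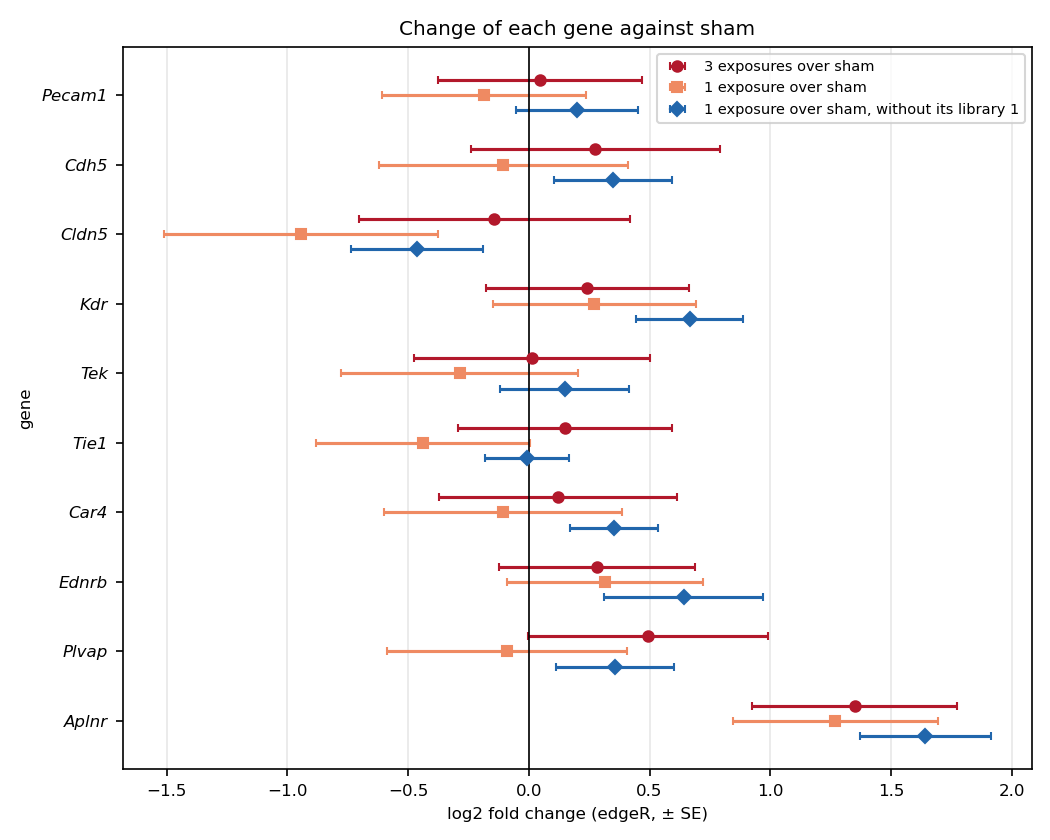
Log2 fold change against sham of each gene with its SE (edgeR). Circles are 3 exposures over sham, squares a single exposure over sham and diamonds a single exposure over sham without single-exposure library 1. Aplnr is at 1.35, 1.27 and 1.64, and 5 of the single-exposure values change sign without library 1.

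Of the 10 genes, 9 were higher and 1 was lower (Cldn5) for 3 exposures against sham, with a median log2 fold change of 0.20, against 0.02 over all genes. That median was near 0 (5 higher, 5 lower) without 3-exposure library 2, the library with the most pan-endothelial RNA. After a single exposure 3 were higher than in sham lungs (Kdr, Ednrb and Aplnr) and 7 lower, with a median of -0.11, against 0.03 over all genes. Without single-exposure library 1, 8 were higher and 2 lower, with a median of 0.35. Leaving out sham library 1 gave 9 higher and 1 lower for 3 exposures (median 0.18) and 3 higher and 7 lower for a single exposure (median -0.11). Between 3 exposures and a single exposure 8 were higher after 3 and 2 lower (Kdr and Ednrb), with a median of 0.27, against -0.01 over all genes. Without single-exposure library 1 that comparison gave 3 higher and 7 lower, with a median of -0.14. Leaving out that library turned the sign of 5 of the 10 genes in each of these comparisons: Pecam1, Cdh5, Tek and Car4 in both, Plvap for a single exposure against sham and Aplnr for 3 exposures against a single exposure.

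In single-exposure library 1 the 10 genes did not drop by a common factor. The sham mean was 9.03 times the level in that library for Cldn5, 4.39 times for Tie1, 4.24 times for Car4, 4.13 times for Cdh5, 4.09 times for Tek and 3.86 times for Plvap. It was 2.92 times for Pecam1, 2.25 times for Kdr, 1.62 times for Ednrb and 1.00 times for Aplnr. The pan-endothelial list stood at 0.274 of its sham mean there and the alveolar type 1 list at 0.217.

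Across the 9 libraries, the 45 pairs of the 10 genes had Pearson correlations of log2(CPM + 0.5) with a median of 0.88 (range 0.15 to 0.98). Over the 8 libraries without single-exposure library 1 the median was 0.43 (range -0.57 to 0.94). The points share library and depth, and the high values over 9 libraries came with that 1 library.

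To set the genes beside the rest of the endothelium, each was also counted per 1000 fragments of the 25 pan-endothelial genes. This scale was chosen after the data were seen. Per 1000 pan-endothelial fragments Aplnr was at 14.4, 5.96 and 10.5 in 3-exposure lungs, at 14.4, 12.1 and 8.26 in single-exposure lungs and at 4.16, 5.65 and 2.34 in sham lungs. All 6 irradiated libraries were above all 3 sham libraries on this scale, and 5.96 against 5.65 was the narrowest gap. In single-exposure library 1 this came from the divisor. Aplnr itself was at 22.8 CPM there, within the sham range of 14.6 to 30.3 CPM, while the pan-endothelial list stood at 0.274 of its sham mean. Per 1000 pan-endothelial fragments Cldn5 was at 27.8, 25.5 and 21.2 in 3-exposure lungs, at 11.9, 14.3 and 20.3 in single-exposure lungs and at 30.1, 32.1 and 26.8 in sham lungs. The single-exposure libraries were the 3 lowest.

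On that scale Plvap was at 27.8, 24.3 and 29.1 in 3-exposure lungs, at 19.3, 16.4 and 25.6 in single-exposure lungs and at 20.5, 22.3 and 18.6 in sham lungs, so that 3-exposure and sham libraries did not overlap. Tie1 was at 41.1, 23.9 and 31.9 in 3-exposure lungs, at 24.6, 21.8 and 25.9 in single-exposure lungs and at 28.3, 27.7 and 32.5 in sham lungs. Its single-exposure libraries were all below sham. Kdr was at 61.1, 55.9 and 61.8 in 3-exposure lungs, at 87.2, 76.1 and 63.3 in single-exposure lungs and at 54.2, 65.4 and 43.5 in sham lungs.

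Per pan-endothelial fragment, 2 of 10 genes were higher without overlap for 3 exposures against sham (Plvap and Aplnr), beside 2.19% of all genes, and 0 were lower, beside 6.48%. For a single exposure against sham, 1 of 10 was higher (Aplnr), beside 3.26% of all genes, and 2 were lower (Cldn5 and Tie1), beside 1.06%. The pan-endothelial sum ran from 1576 to 8511 CPM over the libraries, which adds spread to genes that do not follow it. These shares of all genes are therefore not a like background for the 10 genes, and no excess is read from them. In plain CPM the shares were near the background. Scaling the fit by pan-endothelial fragments moved the median of all genes to 0.81 for a single exposure against sham and to -0.82 for 3 exposures against a single exposure, both on the log2 scale. In that fit the log2 fold change of Aplnr was 1.34 ± 0.66 for 3 exposures against sham (unadjusted p = 0.0546, edgeR) and 1.51 ± 0.67 for a single exposure against sham (unadjusted p = 0.0327, edgeR). Cldn5 was at -0.94 ± 0.57 for a single exposure against sham, and no gene of the 10 was called.

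**Figure D4:**
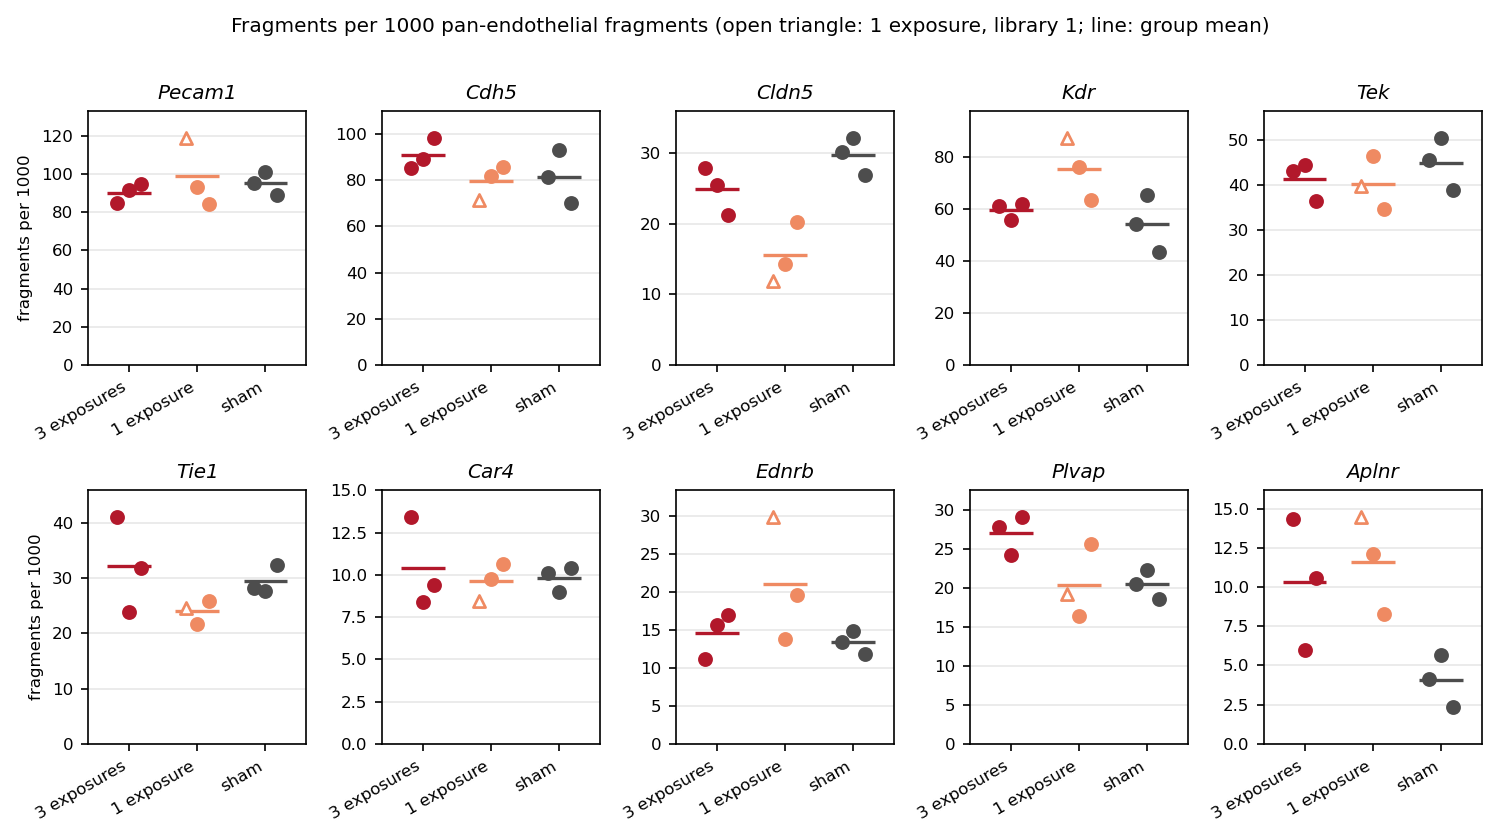
Fragments of each gene per 1000 fragments of the pan-endothelial list, by library. Points are libraries, lines are group means and the open triangle is single-exposure library 1. All irradiated libraries are above the sham libraries for Aplnr (5.96 to 14.4 against 2.34 to 5.65), and the single-exposure libraries are the lowest for Cldn5 (11.9 to 20.3). In single-exposure library 1 the pan-endothelial list is at its lowest, and Aplnr in CPM is within the sham range.

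Ligands and partners of these receptors were read from a list of 15 VEGF, angiopoietin, apelin and endothelin genes, of which 0 passed the test in either direction in each comparison. Between 3 exposures and sham 6 were higher and 9 lower, with a median log2 fold change of -0.06. Between a single exposure and sham 5 were higher and 10 lower, with a median of -0.21. Vegfa, the main ligand of Kdr, was at 758, 725 and 572 CPM in 3-exposure lungs, at 204, 582 and 688 CPM in single-exposure lungs and at 669, 725 and 611 CPM in sham lungs. The groups overlapped. Apln, the ligand of Aplnr, was at 24.8, 43.5 and 29.99 CPM in 3-exposure lungs, at 7.89, 42.0 and 29.0 CPM in single-exposure lungs and at 18.4, 20.4 and 15.9 CPM in sham lungs. Its 3-exposure libraries were above all sham libraries, as for 10.8% of all genes. The log2 fold change of Apln for 3 exposures was 0.85 ± 0.49 (adjusted p = 0.734 with edgeR). Vegfc, the ligand of the lymphatic VEGF receptor, had a log2 fold change of -0.85 ± 0.33 after a single exposure (unadjusted p = 0.0316, adjusted p = 0.380 with edgeR). No gene of the 15 had a lower adjusted p than Vegfc in that comparison.

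The pan-endothelial list, led in level by Gpr116, Calcrl and Aqp1, had 0 calls among 25 genes. Of these, 16 were higher and 9 lower for 3 exposures against sham (median log2 fold change 0.07), and 8 were higher and 17 lower for a single exposure against sham (median -0.21). Calcrl, a receptor for adrenomedullin, was at 938, 1925 and 1057 CPM in 3-exposure lungs, at 137, 1533 and 1444 CPM in single-exposure lungs and at 860, 801 and 965 CPM in sham lungs. Of the 6 irradiated libraries, 4 were above all sham libraries, 3-exposure library 1 was within their range and single-exposure library 1 was below it. Among 15 junction genes, 7 were higher and 8 lower for 3 exposures (median -0.02), and 5 were higher and 10 lower for a single exposure (median -0.06), with 0 calls.

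Of 10 other general capillary genes, 0 were called. After 3 exposures 5 were higher and 5 lower than in sham lungs, with a median log2 fold change of 0.01. After a single exposure 2 were higher and 8 lower, with a median of -0.31. Kit, a receptor of general capillary cells, was at 220, 260 and 181 CPM in 3-exposure lungs, at 35.2, 274 and 228 CPM in single-exposure lungs and at 123, 121 and 138 CPM in sham lungs. As for Aplnr, single-exposure library 1 alone among the irradiated libraries was not above sham. The 3-exposure libraries of Kit were above all sham libraries, as for 10.8% of all genes. The log2 fold change of Kit for 3 exposures was 0.79 ± 0.56 (adjusted p = 0.775 with edgeR). No gene of that list had a lower adjusted p than Kit in this comparison.

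Vessel-type lists gave 0 calls as well. Of 11 tested arterial genes, 7 were higher and 4 lower for 3 exposures against sham, with a median log2 fold change of 0.42, while 5 were higher and 6 lower for a single exposure against sham, with a median of -0.03. Hey2, a Notch target of arterial endothelium, was at 4.54, 7.63 and 6.23 CPM in 3-exposure lungs, at 5.92, 5.16 and 4.15 CPM in single-exposure lungs and at 1.28, 1.70 and 0.984 CPM in sham lungs. All 6 irradiated libraries were above all sham libraries, where the level was low, at 1.70 CPM or less. Of all genes, 10.8% were above sham without overlap after 3 exposures and 10.2% after a single exposure. The share of genes above sham in both groups at once was not counted. No tested arterial gene had a lower adjusted p than Hey2 in either comparison with sham. Hey2 had a log2 fold change of 2.20 ± 0.38 for 3 exposures (adjusted p = 0.301 with edgeR) and 1.93 ± 0.38 for a single exposure (adjusted p = 0.197 with edgeR). Of 8 tested lymphatic endothelial genes, 1 was higher and 7 lower for 3 exposures (median -0.47), and 3 were higher and 5 lower for a single exposure (median -0.35). Of 9 tested venous genes, 3 were higher and 6 lower for 3 exposures (median -0.18), and 4 were higher and 5 lower for a single exposure (median -0.25).

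By Pearson correlation of log2(CPM + 0.5) over the 9 libraries, the genes most like Aplnr were Bmf (0.98), Adcy2 (0.97), Hn1l (0.97), Lrp2 (0.97) and Myef2 (0.95). Over 8 libraries without single-exposure library 1, Lrp2 (0.98) and Bmf (0.98) were still among its 5 most like genes. The most like gene was Epb4.1l2 for Pecam1 (1.00), Pard6b for Cdh5 (1.00), Sema3g for Cldn5 (0.99) and Rab11fip1 for Kdr (0.99). It was Arap3 for Tie1 (0.99), Icam1 for Car4 (0.99), Grlf1 for Ednrb (0.98) and Cdkn2b for Plvap (0.99). These values describe 9 libraries that share depth and tissue makeup.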

How the data were processed

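Mouse lung RNA was sequenced in 9 rRNA-depleted stranded libraries, per the labels' protocols. Per the submitters' processing notes, the tools were cutadapt 1.9.3 and HISAT2 2.0.4, and the build was mm10 (the same as GRCm38). Which program estimated expression is not given in the sources used here. Each library has, per the file headers, deposited FPKM and counts for 22564 genes. The authors' deposited estimated counts were multiples of 1 step per library (91.0 to 93.4% of values were whole within 0.1 after division), so they were divided by that step and rounded.

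Genes were filtered with filterByExpr and fitted with edgeR 4.0.16 (R 4.3.3; TMM, quasi-likelihood, group means, all 9 libraries, 6 residual degrees of freedom, common biological coefficient of variation 0.316). SE is the absolute log2 change over the square root of F. Calls needed an adjusted p under 0.05. CPM uses TMM factors. Alternatives were DESeq2 1.42.0, limma 3.58.1 on log2(FPKM + 1) and log2(FPKM + 0.1), other filters and scaling, a replicate block and leaving out libraries. The fit was tested on simulated data.

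The 10 genes and the 19 other lists were chosen with earlier results of these data known. Named genes are the 10, genes of the vessel, VEGF and capillary lists, and the 5 genes most like each; not all of these are reported here. Sequences are RefSeq's.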

Additional observations from a re-analysis of the deposited data

How the results depend on the processing

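In all 3 comparisons, the count of endothelial genes called was 0 under each alternative run. DESeq2 called 198 genes for a single exposure against sham, 89 for 3 exposures against sham and 5 for 3 exposures against a single exposure, and none of the 10. It gave Aplnr an adjusted p of 0.130 for 3 exposures and 0.115 for a single exposure. For a single exposure against sham limma called 3 genes on log2(FPKM + 1) and 5 on log2(FPKM + 0.1). For 3 exposures against sham limma called 2 genes on log2(FPKM + 0.1), and the fit on only the 6 libraries compared called 9. For 3 exposures against a single exposure limma called 1 gene with either pseudocount. The cause of these differences was not tested.

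Leaving out 1 library at a time gave 0 genes called in each comparison. The median log2 change of the 10 genes then ran from -0.00079 to 0.33 for 3 exposures against sham, from -0.46 to 0.35 for a single exposure against sham and from -0.14 to 0.54 for 3 exposures against a single exposure. Aplnr ran from 1.11 to 1.61 and from 0.87 to 1.64 against sham. Its unadjusted p was at most 0.0709 over all alternatives.

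Several small changes turned direction, none of them called. Leaving out libraries for a single exposure against sham gave -0.43 to 0.20 for Pecam1, -0.48 to 0.35 for Cdh5, -0.033 to 0.67 for Kdr, -0.69 to 0.15 for Tek, -0.51 to 0.35 for Car4, -0.12 to 0.64 for Ednrb and -0.73 to 0.36 for Plvap. For 3 exposures against sham it gave -0.26 to 0.26 for Pecam1, -0.47 to 0.019 for Cldn5, -0.36 to 0.18 for Tek, -0.0023 to 0.23 for Car4 and -0.071 to 0.57 for Ednrb. For 3 exposures against a single exposure it gave -0.15 to 0.48 for Pecam1, -0.072 to 0.75 for Cdh5, -0.42 to 0.27 for Kdr, -0.13 to 0.70 for Tek, -0.23 to 0.63 for Car4, -0.39 to 0.40 for Ednrb and -0.29 to 0.48 for Aplnr. With limma on log2(FPKM + 1), Pecam1 was at -0.087 and Tek at -0.036 for 3 exposures against sham, and Kdr at 0.038 for 3 exposures against a single exposure. With limma on log2(FPKM + 0.1), these were -0.088 for Pecam1, -0.038 for Tek and 0.045 for Kdr.

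With single-exposure library 1 and sham library 1 both left out (chosen after seeing the data), a single exposure against sham gave Pecam1 0.19, Cdh5 0.34, Tek 0.15, Car4 0.36 and Plvap 0.35. For 3 exposures against a single exposure it gave Pecam1 -0.15, Cdh5 -0.072, Tek -0.13, Car4 -0.23 and Aplnr -0.29. Scaling by pan-endothelial fragments (chosen after seeing the data) gave Pecam1 0.052 for a single exposure against sham, Pecam1 -0.077 and Tek -0.12 for 3 exposures against sham, and Pecam1 -0.13 and Aplnr -0.17 for 3 exposures against a single exposure.

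Correlations of the deviations of libraries with the same number ran from -0.08 to 0.30, with 4 of 9 pairs over 0.1, and those of libraries with other numbers from -0.38 to 0.24, with 3 of 18 over 0.1. Not every same-number pair exceeded 0.1, but so few pairs cannot decide whether the numbers pair the libraries. The labels state no pairing, and the main fit did not use the numbers. With the number as a replicate block, 0 genes were called, and the median log2 change of the 10 genes was 0.16 for 3 exposures against sham, -0.35 for a single exposure against sham and 0.40 for 3 exposures against a single exposure. In the block fit Pecam1 was at -0.053 and Tek at -0.092 for 3 exposures against sham and Kdr at 0.067 for 3 exposures against a single exposure.

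At 3 libraries a group, 95% intervals for a single exposure against sham ran from -1.13 to 0.76 for Pecam1 and from -2.22 to 0.33 for Cldn5. Fragments of Aplnr numbered 74 to 161 in the sham libraries.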

Other observations

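Immediate early genes, which respond to stimuli within minutes, had 0 calls among 12 genes with edgeR. All 12 were lower in 3-exposure than in sham lungs (median log2 fold change -1.24, against 0.02 over all genes), and 10 of 12 were lower in single-exposure than in sham lungs (median -0.58, against 0.03 over all genes). Maff and Apold1 were chosen after their values were seen. Maff, a small transcription factor, was at 13.4, 9.67 and 14.1 CPM in 3-exposure lungs, at 8.50, 10.5 and 15.2 CPM in single-exposure lungs and at 32.2, 32.8 and 35.2 CPM in sham lungs. Every irradiated library was below every sham library. Apold1, an immediate early gene of endothelial cells, was at 3.66, 1.91 and 1.31 CPM in 3-exposure lungs, at 6.37, 2.93 and 6.38 CPM in single-exposure lungs and at 27.9, 43.2 and 10.8 CPM in sham lungs, again with no overlap. The log2 fold change of Apold1 was -3.57 ± 0.59 for 3 exposures and -2.38 ± 0.55 for a single exposure. The lowest adjusted p of the list was 0.301 for 3 exposures and 0.141 for a single exposure (edgeR). Of all genes, 11.1% were below sham without overlap after 3 exposures and 10.7% after a single exposure. The share of genes below sham in both groups at once was not counted.

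Of 9 tested platelet and megakaryocyte genes, all were lower than in sham lungs after 3 exposures (median -0.83) and after a single exposure (median -1.12), with 0 calls. The 10 alveolar type 2 genes were all higher after 3 exposures (median 0.39), and 6 were higher and 4 lower after a single exposure (median 0.15). Pericyte genes, whose cells wrap capillaries, were 5 higher and 5 lower after 3 exposures (median -0.01) and 4 higher and 6 lower after a single exposure (median -0.24). Leukocyte genes were 6 higher and 4 lower after 3 exposures (median 0.05) and 7 higher and 3 lower after a single exposure (median 0.32). Airway epithelial genes had medians of 0.01 after 3 exposures and 0.11 after a single exposure. These lists had 0 calls. Over all genes, 52.4% were higher after 3 exposures (median 0.02) and 53.8% after a single exposure (median 0.03).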
